A study of Homo sapiens with 14 samples.

Results

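The genes described here are the KMT2 methyltransferases KMT2A, KMT2B, KMT2C, KMT2D, SETD1A and SETD1B with 4 partners of the KMT2C and KMT2D complexes, KDM6A, NCOA6, PAXIP1 and PAGR1. They were chosen by gene name, and all 10 were found among the 59471 gene names of each count file. RNA-seq was performed in SCC23, an established head and neck squamous cell carcinoma (HNSCC) line, in 14 libraries of polyA RNA from 2 experiments. KMT2D-WT cells are labelled WT, and the KMT2D-KO cells are 2 CRISPR/Cas9 lines, KO1 and KO2, each made with its own guide RNA. By the study's methods, cells were transfected with a plasmid that carries Cas9, GFP and a guide to LacZ or to KMT2D, and GFP-positive cells were sorted. No cloning of single cells is described, so that each line may hold several alleles. Cells were kept in high glucose medium (+Glc) or deprived of glucose for 6 h (-Glc). Each medium has 3 KMT2D-WT and 4 KMT2D-KO libraries, of which experiment 1 holds 1 KMT2D-WT, 1 KO1 and 1 KO2 library and experiment 2 holds 2 KMT2D-WT, 1 KO1 and 1 KO2 library. Nothing in the labels says whether libraries of 1 experiment came from separate cultures, and p-values then measure only the spread between these libraries.

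KMT2 enzymes add methyl groups to lysine 4 of histone H3 (H3K4) and work in complexes known as COMPASS. SETD1A and SETD1B are the main enzymes of H3K4 trimethylation at promoters, KMT2A and KMT2B work with menin at selected promoters, and KMT2C and KMT2D monomethylate H3K4 at enhancers. All 6 enzymes share the WRAD core (WDR5, RBBP5, ASH2L and DPY30), while NCOA6, PAXIP1, PAGR1 and the H3K27 demethylase KDM6A (UTX) sit in the KMT2C and KMT2D complexes. KMT2D is often mutated in HNSCC, and it is the gene that was targeted here.

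The target sites of both knockout lines lie in the coding sequence of KMT2D and are shown because they define the genotypes. KMT2D is on chromosome 12 of GRCh38 (minus strand, 49018978 to 49060794), with 55 exons and 16611 coding bases in its MANE Select transcript (GENCODE 44). The guide of line KO1 matched hg38 exactly at 1 place, in exon 53. Cas9 would cut there after coding base 16397, at 98.7% of the coding length. The guide of line KO2 is listed with 19 letters and had no exact match in hg38. A single site in KMT2D matched it with 1 base inserted and was followed by the NGG motif that Cas9 requires. This site occurs once in hg38, in exon 35, with the cut next to coding base 8561 (51.5% of the coding length). It is given as the nearest match and not as the listed guide. Both are read from hg38 from 5′ to 3′ on the strand of the guide, with the NGG motif (PAM) in capitals, at chr12:49022289-49022311 (minus strand) and chr12:49038779-49038801 (plus strand).
KO1 site: attgatgctacgttgaccggCGG
KO2 nearest site: ggtggaaattcccgccaacgGGG

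Total counts per library ranged from 15669154 to 62968057, and the 10 genes had between 122 and 22066 counts per library. Levels are given as CPM, counts scaled to a common library total, after TMM scaling, which corrects totals for a few very abundant genes. In the 4 +Glc libraries of experiment 2 each mate of a read pair added a count, so even numbers made up at least 67.4% of their low counts (1 to 10), while the share was at most 42.7% elsewhere. Squamous markers were summed to 486 to 1292 CPM with 6 of 7 genes at 1 CPM or more, while KRT6A was near 0. Leukocyte markers stayed at or below 1.10 CPM in sum, endothelial markers at or below 4.11 CPM and fibroblast markers at or below 26.7 CPM, the last of these mostly from COL1A1. Library KMT2D-KO -Glc replicate 1 (KO1, experiment 1) stood apart. The 1052 genes with over 12 kb of exons had a median log2 difference of -0.57 from their own means in that library, against -0.21 to 0.34 in the other 13. The 2 KMT2D-KO -Glc libraries of experiment 2 go against their labels. They are labelled KO1 and KO2, yet differed by a chi-square of 1.71 per gene, against 22.97 to 72.7 between KO1 and KO2 elsewhere. Among 3023 genes that differed between the lines with glucose, the library labelled KO1 was nearer to KO2 for 71.7% and the library labelled KO2 for 72.1%. Lines were therefore compared with glucose only. The 2 KMT2D-WT -Glc libraries of experiment 2 were as close (1.65 per gene), while the 2 KMT2D-WT +Glc libraries of experiment 2 differed by 25.34 per gene. A chi-square of that size is therefore not particular to a pair of different lines.

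KMT2D itself was examined first. With glucose, its level was 279, 266 and 271 CPM in the KMT2D-WT libraries, 182 and 184 CPM in the KO1 libraries, and 323 and 373 CPM in the KO2 libraries. The lines lay on opposite sides of KMT2D-WT, and the values of KMT2D-WT, KO1 and KO2 did not overlap. KO1 was lower than KMT2D-WT (log2 fold change -0.57 ± 0.08 SE, edgeR adjusted p = 1.82e-05) and KO2 was higher (0.37 ± 0.08, edgeR adjusted p = 0.000751). The difference between the lines was 0.94 ± 0.08 (edgeR adjusted p = 7.87e-07), so that KO2 held 1.92 times the KMT2D level of KO1. With both lines pooled, the 4 KMT2D-KO libraries averaged 266 ± 97.4 CPM (SD, n = 4) against 272 ± 6.95 CPM (SD, n = 3). Their log2 fold change of -0.02 ± 0.25 did not pass the test (edgeR adjusted p = 0.967). A small insertion or deletion at the cut leaves most of the exons countable, so these levels do not check the genotype labels. The study reports the knockout at the protein level by western blot.

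**Figure D1:**
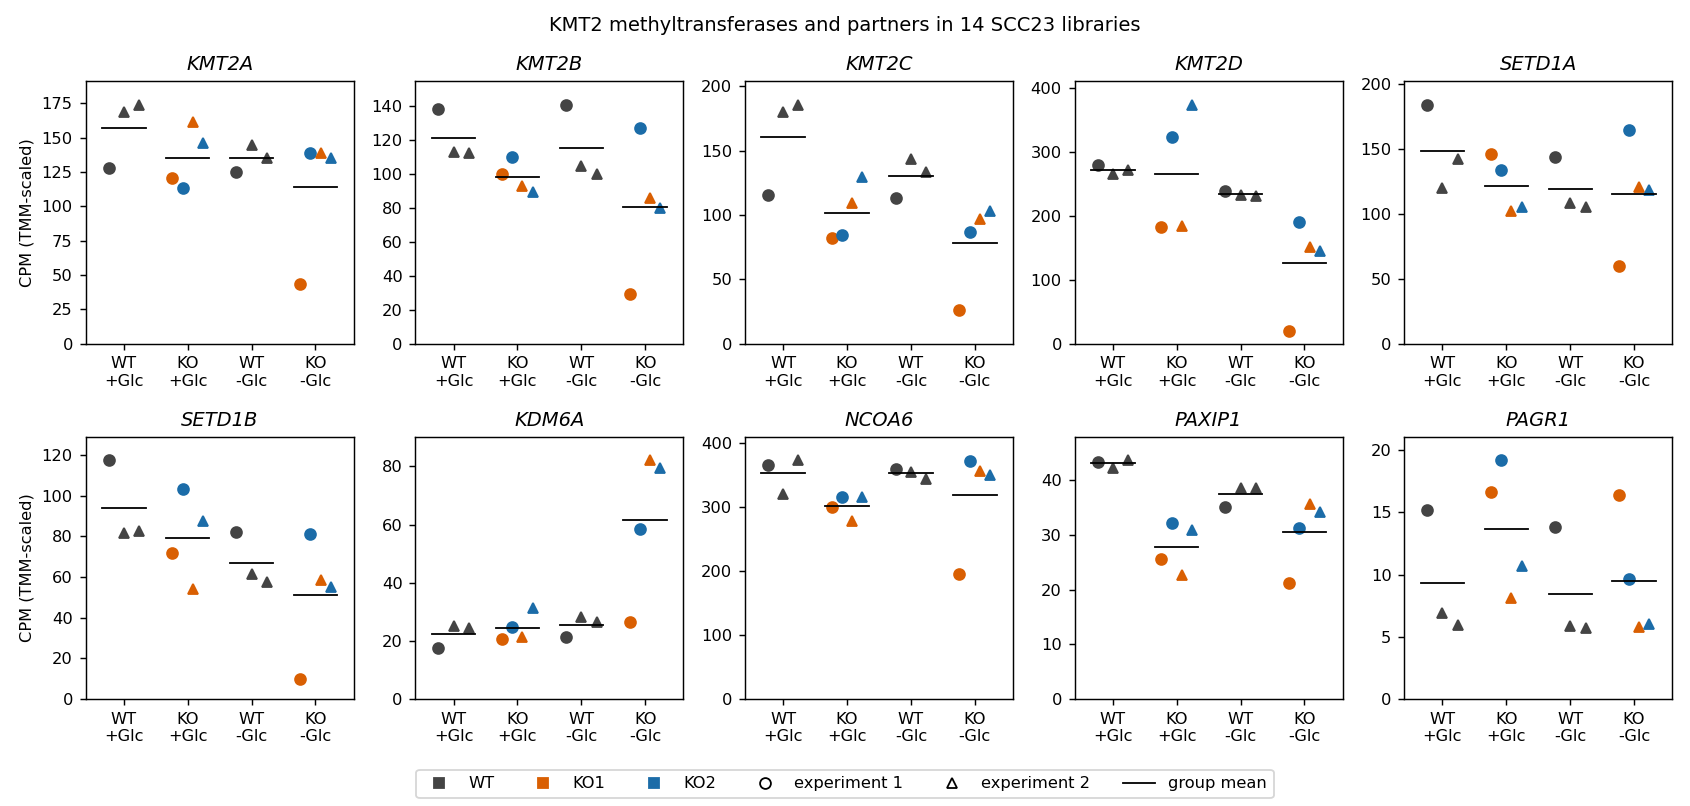
TMM-scaled CPM (vertical axis, from 0) of each gene in all 14 libraries, in 4 groups of genotype and medium (horizontal axis), coloured by labelled line, with circles for experiment 1, triangles for experiment 2 and a bar at the group mean. KMT2D with glucose splits by line (KO1 at 182 and 184 CPM, KO2 at 323 and 373 CPM), and the lowest point of most methyltransferases is the KO1 -Glc library of experiment 1.

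With glucose, KMT2B, KMT2C, SETD1A and PAXIP1 fell in KMT2D-KO cells, by 1.26 to 1.56-fold, and none of the 10 genes was called higher. These 4 genes were called at an adjusted p under 0.05 in edgeR with experiment as a covariate, where 24.7% of the 20423 genes tested were called and 11.7% were called lower. The median log2 fold change of the 10 genes was -0.26 against 0.02 over all genes tested. KMT2A, KMT2D, SETD1B, KDM6A, NCOA6 and PAGR1 did not pass the test, with log2 fold changes of -0.29 to 0.43. The study itself reports that other genes of the family were unaffected in KMT2D-KO SCC23 cells. It measured KMT2A, KMT2B and KMT2C there by qRT-PCR and western blot, so its reading differs from the RNA-seq falls of KMT2B and KMT2C.

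KMT2C (chromosome 7, 152134922 to 152436003) is the closest relative of KMT2D and does the same reaction at enhancers. With glucose it was at 116, 180 and 186 CPM in KMT2D-WT cells and at 81.8, 84.3, 109 and 130 CPM in KMT2D-KO cells. Levels were higher in experiment 2 in both genotypes, and within each experiment both KMT2D-KO libraries lay under all KMT2D-WT values. The log2 fold change was -0.55 ± 0.09 (edgeR adjusted p = 0.00206). Reads of KMT2C can be split with its partial copies elsewhere in the genome, which makes its level less certain.

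PAXIP1 (PTIP, chromosome 7, 154943687 to 155003124), which joins KMT2C and KMT2D complexes to chromatin, had the largest fall of the 10 genes. KMT2D-WT libraries with glucose were at 43.4, 42.3 and 43.7 CPM and KMT2D-KO libraries at 25.7, 32.1, 22.7 and 30.9 CPM. The groups did not overlap, and the KO1 libraries were the lowest in each experiment. The log2 fold change was -0.64 ± 0.13 (edgeR adjusted p = 0.00763). Of its exonic bases, 6.0% overlap other genes, mainly the antisense gene PAXIP1-AS2, and counting did not use strand.

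KMT2B (chromosome 19, 35717973 to 35738878), which works with menin like KMT2A, was at 138, 113 and 112 CPM in KMT2D-WT cells and at 99.7, 110, 92.6 and 89.4 CPM in KMT2D-KO cells. The groups did not overlap, and the log2 fold change was -0.34 ± 0.08 (edgeR adjusted p = 0.0145). SETD1A (chromosome 16, 30957754 to 30984664) was at 184, 120 and 142 CPM and at 146, 133, 102 and 105 CPM, in the same order. Here the groups overlapped across experiments but not within one, and the log2 fold change was -0.35 ± 0.08 (edgeR adjusted p = 0.0137). KMT2A averaged 157 ± 25.3 CPM (SD, n = 3) and 135 ± 22.4 CPM (SD, n = 4), with a log2 fold change of -0.14 ± 0.08 that did not pass the test (edgeR adjusted p = 0.252). Of the exonic bases of KMT2A, 18.9% overlap other genes.

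The direction of these changes was the same in both experiments, and their calls rested on the covariate. Within experiment 1 the log2 fold changes of KMT2B, KMT2C, SETD1A and PAXIP1 were -0.40, -0.48, -0.40 and -0.59, and within experiment 2 they were -0.32, -0.62, -0.35 and -0.69. Without experiment in the model none of the 10 genes was called in edgeR, where 2 had an unadjusted p under 0.05, and DESeq2 called 1. Without KMT2D-WT +Glc replicate 1 only KMT2C was called. The share over all genes in these settings is not given here, so the loss of calls is not a result about these genes in particular.

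Each line was then compared with KMT2D-WT. KMT2B, KMT2C, SETD1A and PAXIP1 were lower in both lines, with log2 fold changes of -0.37, -0.64, -0.34 and -0.86 in KO1 and of -0.31, -0.48, -0.37 and -0.46 in KO2. In KO1, 7 of the 10 genes were called (edgeR, 32.0% of all genes tested) and all 7 were lower, the others being KMT2D, SETD1B and NCOA6. In KO2, 7 were also called (34.6% of all genes tested), and KMT2D, KDM6A and PAGR1 were higher.

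SETD1B (chromosome 12, 121804009 to 121832656) followed the lines as KMT2D did. With glucose it was at 117, 81.5 and 82.6 CPM in KMT2D-WT, at 71.6 and 54.2 CPM in KO1 and at 103 and 87.5 CPM in KO2. Within each experiment KO1 was below every KMT2D-WT library, whereas KO2 was below it in experiment 1 and above it in experiment 2. Its log2 fold change was -0.64 ± 0.08 in KO1 (edgeR adjusted p = 1.18e-05) and -0.01 ± 0.08 in KO2 (edgeR adjusted p = 0.937). Between the lines, 4 of the 10 genes differed (edgeR, 14.7% of all genes tested), and all 4 were higher in KO2. These were KMT2D, SETD1B (0.63 ± 0.09, edgeR adjusted p = 0.000122), KDM6A (0.43 ± 0.12, edgeR adjusted p = 0.0225) and PAXIP1 (0.40 ± 0.10, edgeR adjusted p = 0.0126). With 2 libraries a line, the calls of KDM6A and PAXIP1 between lines were lost when KO2 replicate 2, KO1 replicate 3 or KO2 replicate 4 was left out, while those of KMT2D and SETD1B were kept.

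**Figure D2:**
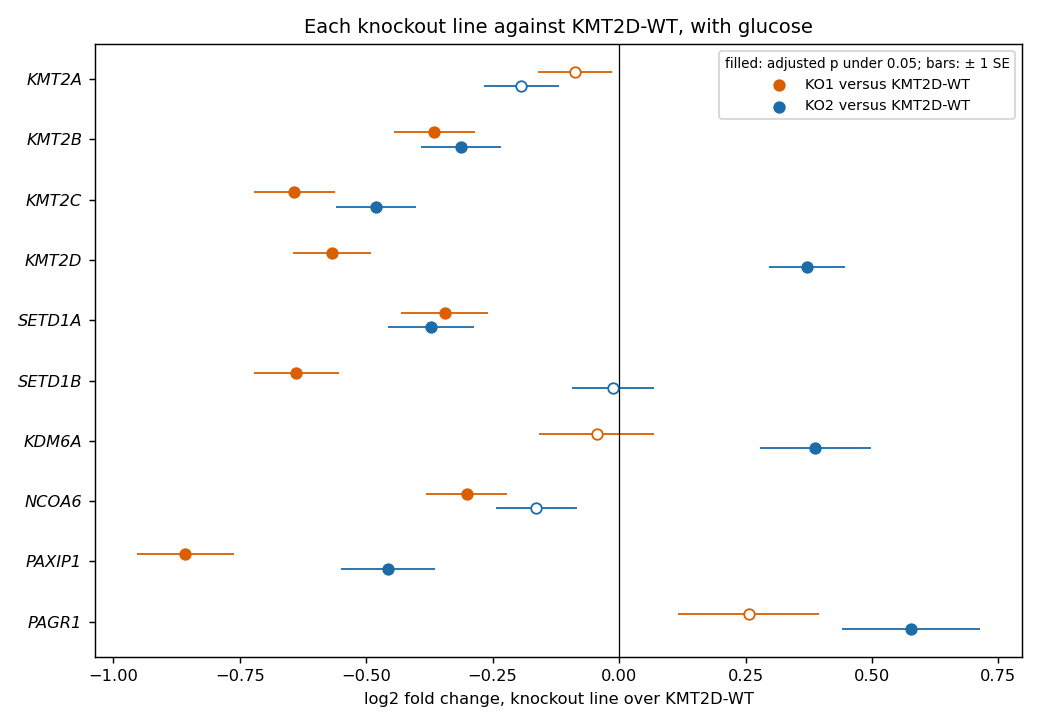
Log2 fold change of each line over KMT2D-WT with glucose (horizontal axis) for the 10 genes (vertical axis), with bars of 1 SE and filled points for an edgeR adjusted p under 0.05. KMT2D is at -0.57 in KO1 and 0.37 in KO2, SETD1B is at -0.64 and -0.01, and KMT2C and PAXIP1 are lower in both lines.

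SETD1B was also the gene whose levels over the 14 libraries were most like those of KMT2D. Among 14267 other genes with a mean of at least 1 CPM, the root mean square difference between centred log2 levels was smallest for SETD1B (0.31), followed by TSSK4 (0.40), NRIP2 (0.40), AL049840.2 (0.41) and KLF13 (0.42). All 5 had their lowest level in KMT2D-KO -Glc replicate 1, at 10.0 CPM for SETD1B against a KMT2D-WT -Glc mean of 66.9 CPM and at 5.01 CPM for KLF13 against 35.8 CPM. KMT2C came 35th in this order and KMT2B 48th, whereas KDM6A came 11442nd. These ranks are descriptions over libraries that share the same experiments. They also include the low values of KMT2D-KO -Glc replicate 1, and no ranking was made without it. TSSK4 and NRIP2 were at 0.25 and 0 CPM there, and their differences between KO2 and KO1 with glucose were 0.24 and 0.13, against 0.63 for SETD1B.

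Without glucose, KDM6A was the gene that stood out. KDM6A (chromosome X, 44873188 to 45112779) removes methyl groups from H3K27 and is the demethylase of the KMT2D complex. Its level was 21.5, 28.4 and 26.4 CPM in KMT2D-WT cells and 26.5, 58.5, 82.0 and 79.5 CPM in KMT2D-KO cells. The 3 high libraries are KO2 of experiment 1 and both KMT2D-KO libraries of experiment 2, and the KO1 library of experiment 1 lay within the range of KMT2D-WT. The squamous marker CDH1 was high in the same 3 libraries, at 226, 212 and 205 CPM against 61.1 CPM in the KO1 library of experiment 1 and 58.6 to 62.7 CPM in KMT2D-WT. Of the other squamous markers without glucose, KRT5, TP63 and DSG3 were also highest in these 3. KRT14 (253, 172 and 179 CPM against 134 CPM and 184 to 229 CPM) and EPCAM (256, 419 and 426 CPM against 283 CPM and 231 to 326 CPM) were not. With glucose, CDH1 was at 140 and 117 CPM in KO2, 82.0 and 49.9 CPM in KO1 and 50.8 to 58.4 CPM in KMT2D-WT. The summed squamous markers had a median of 1235 CPM in KMT2D-KO -Glc and 738 CPM in KMT2D-WT -Glc, and their part in the KDM6A value was not tested. The log2 fold change was 1.31 ± 0.25 (edgeR adjusted p = 0.00479), and KDM6A was the only 1 of the 10 genes called, where 50.8% of the 16782 genes tested were called. Without KMT2D-KO -Glc replicate 1 it was 1.49 ± 0.05 (edgeR adjusted p = 1.15e-14), where the SE measures mainly the spread within the close pairs of experiment 2. Within experiment 1 it was 0.99 ± 0.55 (edgeR adjusted p = 0.504, 1 KMT2D-WT library), and with the close libraries of experiment 2 summed it was 1.23 (edgeR adjusted p = 0.0805).

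The same gene was also the only 1 called for glucose deprivation in KMT2D-KO cells. KDM6A was at 20.6, 24.7, 21.5 and 31.4 CPM with glucose, so that the 3 high -Glc libraries lay above all of them. The log2 fold change was 1.08 ± 0.27 (edgeR adjusted p = 0.0106, 27.2% of the 18678 genes tested called). In KMT2D-WT cells KDM6A was at 17.7, 25.1 and 24.5 CPM with glucose, each below the -Glc libraries of its own experiment. The fitted value of -0.06 ± 0.32 (edgeR adjusted p = 0.986) had the opposite sign to these levels, and it was 0.14 ± 0.18 (edgeR adjusted p = 0.775) without KMT2D-KO -Glc replicate 1. The KMT2D-KO effect differed between the media by 1.14 ± 0.32 (edgeR adjusted p = 0.0406), and KDM6A was again the only 1 of the 10 called (11.3% of all genes tested). This call was lost when any of 10 of the 14 libraries was left out, with values of 0.98 to 1.37. Leaving out KMT2D-KO -Glc replicate 1 gave 1.34 ± 0.18 (edgeR adjusted p = 0.000389). With glucose, KDM6A had been higher in KO2 than in KMT2D-WT (0.39 ± 0.11, edgeR adjusted p = 0.00989) and did not pass the test in KO1 (-0.04 ± 0.11, edgeR adjusted p = 0.826). Since 3 of the 4 KMT2D-KO -Glc libraries are labelled KO2 or nearer to KO2, the share of the line in the value without glucose was not tested.

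The methyltransferases without glucose depended on 1 library. KMT2D was at 239, 233 and 231 CPM in KMT2D-WT cells and at 19.9, 190, 152 and 145 CPM in KMT2D-KO cells. The groups did not overlap, and the lowest value was that of replicate 1, in which long genes were low. With all 7 libraries the log2 fold change of KMT2D was -0.90 ± 0.60 and did not pass the test (edgeR adjusted p = 0.247). Without replicate 1 it was -0.58 ± 0.05 (edgeR adjusted p = 2.44e-08), and 6 of the 10 genes were called where 74.4% of all genes tested were. KMT2C (-0.48 ± 0.04), KMT2B (-0.28 ± 0.05) and PAXIP1 (-0.19 ± 0.05) were then lower and SETD1A was higher (0.14 ± 0.04), beside KMT2D and KDM6A. Most libraries of the fit without replicate 1 are the close pairs of experiment 2 (chi-square of 1.71 and 1.65 per gene). Its SE and p-values therefore measure mainly the spread within those pairs.

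Replicate 1 was lower than the KO2 library of the same experiment and medium in 9 of the 10 genes, with log2 differences of -3.26 to -0.56. KMT2D differed most (-3.26), followed by SETD1B (-3.02), KMT2B (-2.11), KMT2C (-1.73) and KMT2A (-1.69). The median over genes with more than 12 kb of exons was -0.28, and 0.380% of those genes were at or below KMT2D. PAGR1, the shortest of the 10 with 3874 exonic bases, was higher in replicate 1 (0.76). SETD1B has 8557 exonic bases and KMT2A, the longest, has 31279, and the part of length in these differences was not tested.

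**Figure D3:**
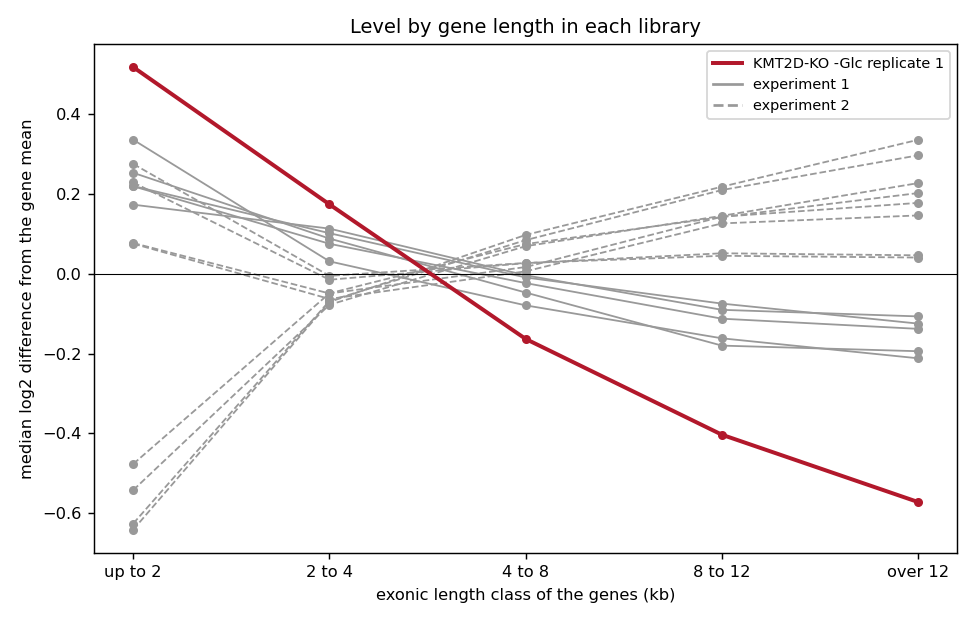
Median log2 difference of the genes from their own mean over 14 libraries (vertical axis) in 5 classes of exonic length (horizontal axis, kb), with 1 line per library, solid for experiment 1 and dashed for experiment 2. KMT2D-KO -Glc replicate 1 runs down to -0.57 in genes over 12 kb, while the other 13 libraries end between -0.21 and 0.34.

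KMT2B, KMT2C and PAXIP1 were the genes for which genotype held in every library. They lay under all KMT2D-WT values of the same experiment and medium in 8 of 8 KMT2D-KO libraries. This was so for 3 of the 10 genes and for 15.5% of the 18678 genes, while 15.0% of genes were above in all 8 and none of the 10 was. Without glucose KMT2C was at 113, 144 and 134 CPM in KMT2D-WT and at 26.1, 86.8, 97.2 and 103 CPM in KMT2D-KO, and the groups did not overlap. PAXIP1 was at 35.2, 38.7 and 38.6 CPM and at 21.2, 31.3, 35.7 and 34.2 CPM, where the highest KMT2D-KO library of experiment 2 passed the KMT2D-WT library of experiment 1. KMT2B was at 140, 104 and 99.7 CPM and at 29.3, 127, 85.5 and 80.0 CPM, with overlap across experiments only. KMT2D was below in 6 of 8 libraries and above in the 2 KO2 libraries with glucose, and KDM6A was above in 7 of 8.

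**Figure D4:**
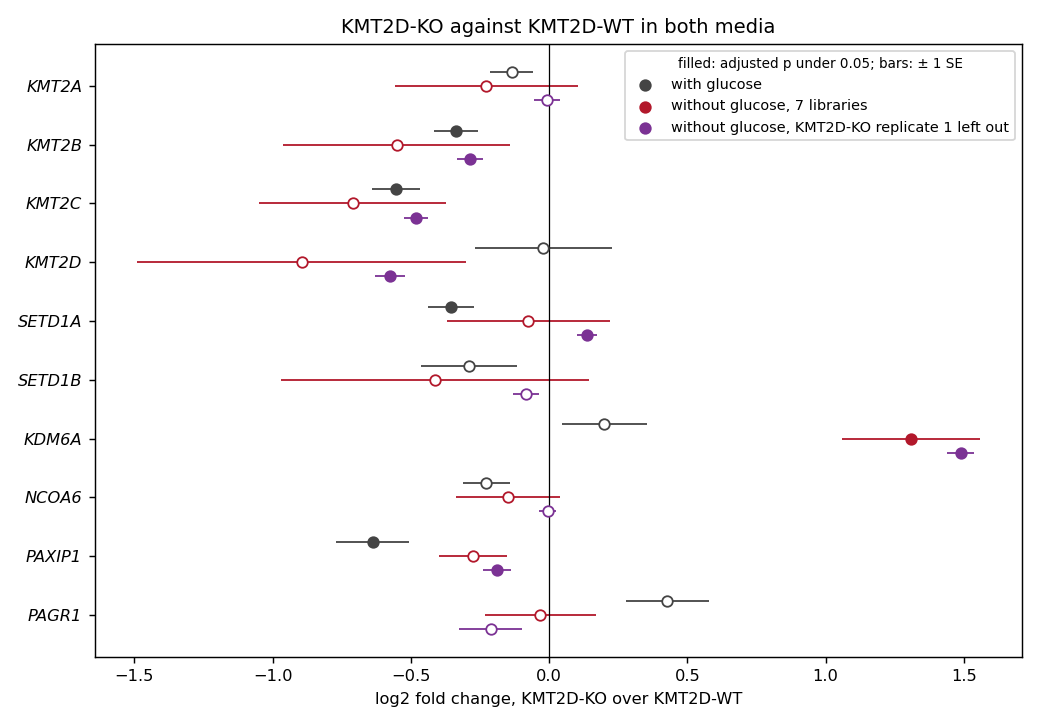
Log2 fold change of KMT2D-KO over KMT2D-WT (horizontal axis) for the 10 genes (vertical axis) with glucose, without glucose, and without glucose when KMT2D-KO replicate 1 is left out, with bars of 1 SE and filled points for an edgeR adjusted p under 0.05. KDM6A is at 0.20 with glucose and at 1.31 and 1.49 without it, and the SE of KMT2D shrinks from 0.60 to 0.05 when the library is left out.

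NCOA6 and PAGR1, the remaining partners, did not pass the test in either medium. NCOA6 (chromosome 20, 34689097 to 34825651), a nuclear receptor coactivator, was at 320 to 373 CPM in KMT2D-WT and 278 to 315 CPM in KMT2D-KO with glucose, without overlap. Its log2 fold change of -0.23 ± 0.08 did not pass the test (edgeR adjusted p = 0.0836), and the line fits gave -0.30 ± 0.08 in KO1 (edgeR adjusted p = 0.00701) and -0.16 ± 0.08 in KO2 (edgeR adjusted p = 0.128), which did not differ by the test. PAGR1 (PA1, chromosome 16, 29816152 to 29822489), which binds PAXIP1, was at 5.93 to 15.2 CPM in KMT2D-WT and 8.09 to 19.2 CPM in KMT2D-KO with glucose. It was higher in experiment 1 than in experiment 2 in both genotypes, and its log2 fold change of 0.43 ± 0.15 did not pass the test (edgeR adjusted p = 0.0702), although it was larger in size than those of KMT2B and SETD1A. In KO2 it was 0.58 and called. Of its exonic bases, 48.2% overlap other genes.

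Glucose deprivation by itself was not followed by a change that passed the test in KMT2D-WT cells. None of the 10 genes was called in edgeR (0.182% of all genes tested were) or DESeq2, and 1 had an unadjusted p under 0.05 in edgeR. Log2 fold changes ran from -0.72 (SETD1B, SE 0.62) to -0.06 (KDM6A, SE 0.32), and these values depended on a KMT2D-KO library that shares the fit. Without KMT2D-KO -Glc replicate 1 they ran from -0.40 (SETD1B, SE 0.22) to 0.14 (KDM6A, SE 0.18), KMT2A, KMT2B, KDM6A and NCOA6 were above 0, the SE of KMT2A went from 0.37 to 0.10, and none was called either (edgeR, 1 gene with an unadjusted p under 0.05). In KMT2D-KO cells the 9 genes other than KDM6A did not pass either, and KMT2D was at -1.19 ± 0.60 (edgeR adjusted p = 0.164), or -0.53 ± 0.29 (edgeR adjusted p = 0.186) without replicate 1. Without replicate 1, KDM6A (1.48 ± 0.16), NCOA6 (0.28 ± 0.09) and PAGR1 (-0.74 ± 0.19) were called, where 33.7% of all genes tested were. In the test of whether the KMT2D-KO effect depended on the medium, SETD1A (0.54 ± 0.10) and PAXIP1 (0.50 ± 0.15) joined KDM6A without that library, where 22.5% were called. The KMT2D-KO -Glc libraries then left are labelled KO2 or nearer to KO2, whereas the KMT2D-KO +Glc libraries hold both lines. The share of the line in these deprivation and interaction values was not tested. Their SE also rests in part on the close pairs of experiment 2 without glucose. Values are taken at experiment 1, because the +Glc and -Glc libraries of experiment 2 were counted in different ways.

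Levels per exonic length were compared between genes. In KMT2D-WT cells with glucose, NCOA6 was the highest at 31.7 ± 2.56 CPM per kb (SD, n = 3) and SETD1A was next at 23.3 ± 5.09 CPM per kb, with overlapping ranges. KMT2D (12.7 ± 0.32), KMT2B (11.6 ± 1.42) and SETD1B (11.0 ± 2.38 CPM per kb) followed and overlapped in turn. KMT2C was at 7.98 ± 1.93 CPM per kb and KMT2A at 5.01 ± 0.81, which overlapped PAXIP1 at 4.45 ± 0.07. PAGR1 (2.42 ± 1.31) and KDM6A (0.94 ± 0.17 CPM per kb) were the lowest. In KMT2D-KO -Glc cells KDM6A stood at 2.58 CPM per kb and PAGR1 at 2.44, with overlapping ranges. Length here is the union of annotated exons, which exceeds that of any 1 transcript. It also includes bases shared with other genes, where reads can be dropped by the counting. Such bases are 48.2% of the exonic length of PAGR1 and 18.9% of that of KMT2A. Their levels per kb may therefore be too low, and their places in this order are uncertain.

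Other genes of H3K4 and H3K27 methylation were examined as 5 lists of 30 genes in all. With glucose, 7 rose and 6 fell in KMT2D-KO cells, which is 13 of 30 against 24.7% of all genes tested. Without glucose, 4 rose and 8 fell, against 50.8% of all genes tested. When KMT2D-KO -Glc replicate 1 was left out, 11 rose and 15 fell, against 74.4% of all genes tested. The median log2 fold change over the 30 genes was -0.07 with and -0.13 without glucose, against 0.02 and 0.00 over all genes tested.

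In the WRAD core, which every KMT2 enzyme needs, DPY30 rose in both media (0.40 ± 0.12 with glucose, edgeR adjusted p = 0.0400, and 0.55 ± 0.11 without, edgeR adjusted p = 0.00480). ASH2L fell with glucose (-0.38 ± 0.09, edgeR adjusted p = 0.0128). WDR5 and RBBP5 did not pass, at -0.15 and 0.09 with glucose and -0.11 and 0.21 without. By line with glucose, DPY30 was called in KO2 (0.56 ± 0.09) and not in KO1 (0.22 ± 0.09), and the lines differed (edgeR adjusted p = 0.0236). ASH2L was lower in both lines (-0.42 in KO1 and -0.34 in KO2). When KMT2D-KO -Glc replicate 1 was left out, 3 of these 4 genes were called without glucose, against 74.4% of all genes tested. Of the exonic bases of DPY30, 50.8% overlap MEMO1.

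Of 8 subunits of the SETD1 and menin-type complexes, 2 rose and 2 fell with glucose (24.7% of all genes tested called) and 1 rose and 3 fell without (50.8%), so that 4 of 8 without glucose is close to the share over all genes. BOD1, named for a kinetochore role and related to the SETD1B subunit BOD1L1, rose by 0.80 ± 0.09 with glucose and by 1.21 ± 0.09 without (edgeR adjusted p = 0.000521 and 0.000132). PSIP1 (LEDGF), the chromatin anchor of menin complexes, fell in both media (-0.82 ± 0.12 and -0.37 ± 0.11), and HCFC2 fell with glucose (-0.59 ± 0.17). MEN1 (menin, -0.47 ± 0.06) and HCFC1 (-0.53 ± 0.08) fell without glucose. With glucose neither passed with the lines pooled, while MEN1 was called lower in KO1 (-0.33 ± 0.09) and HCFC1 in KO2 (-0.34 ± 0.07). HCFC2 was lower in both lines with glucose (-0.89 in KO1 and -0.35 in KO2), and the lines differed (edgeR adjusted p = 0.00707).

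Of 7 genes on the H3K27 side, SUZ12 and EZH2, subunits of the H3K27 methyltransferase PRC2, fell in both media. SUZ12 fell by 1.18 on the log2 scale with glucose and by 1.36 without it (log2 fold change -1.18 ± 0.11 and -1.36 ± 0.10, edgeR adjusted p = 0.000136 and 0.000103). EZH2 was at -0.85 ± 0.15 and -0.53 ± 0.09 (edgeR adjusted p = 0.00393 and 0.00232). By line with glucose, EZH2 was at -1.13 ± 0.09 in KO1 and -0.61 ± 0.09 in KO2, and the lines differed (edgeR adjusted p = 0.00123). SUZ12 was at -1.13 and -1.24, and its line difference did not pass. EED, the third core subunit, fell without glucose (-0.63 ± 0.13) and was at 0.24 ± 0.12 with it, where it did not pass, and its KMT2D-KO effect differed between the media (-0.85 ± 0.17, edgeR adjusted p = 0.0100). The acetyltransferase gene CREBBP rose with glucose (0.58 ± 0.08). KDM6B, the paralog of KDM6A, did not pass in either medium, at -0.11 ± 0.11 and -0.34 ± 0.12, and was called without glucose when KMT2D-KO -Glc replicate 1 was left out (-0.26 ± 0.05).

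Of 5 H3K4 demethylases, KDM5B rose with glucose (0.60 ± 0.09, edgeR adjusted p = 0.00190) and KDM1B fell without (-0.27 ± 0.08, edgeR adjusted p = 0.0255), and the other genes did not pass. Of 6 other SET proteins, SETD7 (0.55 ± 0.10) and SMYD2 (0.45 ± 0.10) rose and KMT2E fell (-0.52 ± 0.13) with glucose. Without it SMYD2 (0.56 ± 0.07) and SMYD3 (0.62 ± 0.08) rose and ASH1L fell (-0.54 ± 0.08). In each medium 1 of 5 demethylases and 3 of 6 SET proteins were called, against 24.7% of all genes tested with glucose and 50.8% without. When KMT2D-KO -Glc replicate 1 was left out, 4 of 5 and 6 of 6 were called without glucose, against 74.4%. Which of these genes passed without glucose therefore depended on that library.

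**Figure D5:**
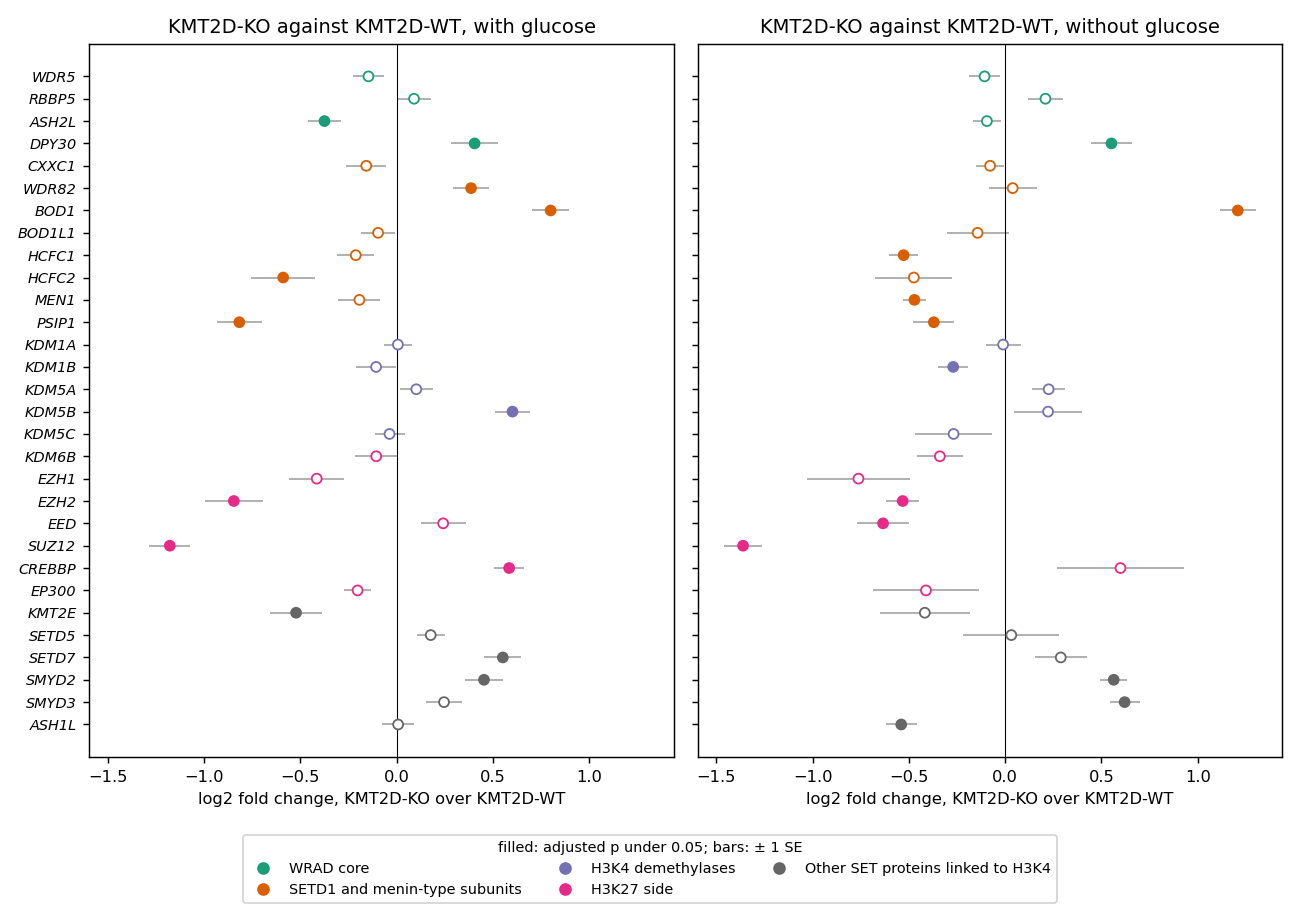
Log2 fold change of KMT2D-KO over KMT2D-WT (horizontal axis) for 30 genes of H3K4 and H3K27 methylation (vertical axis), with glucose on the left and without it on the right, coloured by list, with bars of 1 SE and filled points for an edgeR adjusted p under 0.05. BOD1 lies at 0.80 and 1.21 and SUZ12 at -1.18 and -1.36.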

How the data were processed

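RNA-seq counts of 14 SCC23 libraries were analysed. The other assays of the study were not analysed here. The 10 genes, the lists and the tests were chosen with earlier results of these data known. The authors mapped reads to GRCh38 with HISAT2 and deposited raw counts per gene name, made with featureCounts 2.0.3 on the Ensembl 102 annotation without strand, as the file headers record. In 4 libraries both mates were counted. Reads shared by overlapping genes are dropped by this counting unless they fall on 1 gene only.

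Tests were made by the quasi-likelihood method of edgeR 4.0.16 (R 4.3.3), after TMM scaling and the filterByExpr rule at a minimum of 10 counts, and an adjusted p (Benjamini-Hochberg) under 0.05 was called. All of these steps used the deposited counts, and all 10 genes passed the filter in each fit. Each medium was fitted alone with experiment as covariate. Lines were fitted in the 7 +Glc libraries. Glucose and its interaction were fitted in all 14 libraries with experiment within medium. The study's methods name DESeq2 without a covariate, which was an alternative (DESeq2 1.42.0). The experiment number pairs the groups: differences between experiments correlated across genes between the genotypes (r = 0.95 with and 0.87 without glucose, genes not being independent replicates). Alternatives were no covariate, RLE, other filters, offsets for exonic length and GC content, halving the counts made from read pairs, sums of close libraries, single experiments and each library left out.

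All 10 genes and the 4 WRAD genes are named. From the other lists, up to 3 called genes with the largest change are named per comparison, with KDM6B, PSIP1 without glucose and EED with glucose added after their values were seen. Values of partner genes by line were also added after they were seen. The 5 genes most like KMT2D have the smallest root mean square difference of centred log2 CPM. Guide letters were matched to hg38, and exons are from GENCODE 44.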

Additional observations from a re-analysis of the deposited data

Results flagged for a closer look

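Among the 20 groups of 4 libraries (10 genes in KMT2D-KO cells with and without glucose), 2 held a library far from the rest by Dixon's test. In both it was KMT2D-KO -Glc replicate 1, with 43.1 CPM for KMT2A and 196 CPM for NCOA6. Chance gives about 1 in 20 for independent libraries of 1 kind. Each group here mixes 2 labelled lines and 2 experiments, and the groups without glucose hold a close pair, so this rate need not apply. The part of long genes, which were low in this library, was not tested for these values.

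The effect of KMT2D-KO on KDM6A differed between media by a test of the difference (log2 difference 1.14). Between lines KO2 and KO1 with glucose, tested differences were 0.94 for KMT2D, 0.63 for SETD1B, 0.43 for KDM6A and 0.40 for PAXIP1.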

How the results depend on the processing

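Of 454 alternative values for 27 results on single genes, 25 of them called, 376 kept direction and side of the threshold, 68 lost the call, 4 gained it and 6 turned, and the cause was not tested. All 6 were KMT2D with glucose, at -0.02 in the main fit, and included 0.041 in experiment 2 alone, 0.012 with a GC offset and 0.072 with a length offset. Over all alternatives, turned or not, this value ran from -0.33 to 0.18. Outside these 27, leaving out KMT2D-KO -Glc replicate 1 turned SETD1A without glucose from -0.08 to 0.14, and for deprivation turned 6 genes in KMT2D-KO cells (KMT2A, KMT2B, KMT2C, SETD1A, NCOA6 and PAXIP1, to 0.08 to 0.28) and 4 in KMT2D-WT cells to values above 0. Counts below are of the 10 genes called. The share over all genes is not given for most of these settings, so the counts are not a result about the 10 genes as a set. Without glucose, experiment 2 alone compares only the close pairs of libraries. The model without experiment (no block) called 0 with glucose, 1 in KO1, 0 in KO2, 0 between lines and 0 for the interaction, and 2 of 30 partner genes with glucose and 7 without. With glucose (4), counts were 1 in a fit of all 14 libraries, 1 with DESeq2 without experiment, 0 and 2 in experiments 1 and 2 alone, and 1 with a 1.5-fold limit (in KO1 3, in KO2 0, between lines 2). Without glucose (1), they were 0 with close libraries summed, 0 and 8 in experiments 1 and 2 alone, 5 without a filter, and, chosen after seeing the data, 5 with close libraries summed and KMT2D-KO -Glc replicate 1 left out. For glucose deprivation, no filter gave 1 in KMT2D-WT and 4 in KMT2D-KO cells, and a contrast at experiment 2 or 1 shared experiment term gave 2 in KMT2D-KO cells. For the interaction, no filter gave 2, summed close libraries 0, and summed libraries without replicate 1 (chosen after seeing the data) 2. Leaving out each library gave 1 to 5 with glucose (1 without KMT2D-WT replicate 1), 1 to 6 without (3 without KMT2D-KO replicate 2), 5 to 7 in KO1, 3 to 8 in KO2 (3 without KMT2D-KO replicate 4), 2 to 4 between lines, 0 to 0 and 1 to 4 for deprivation in KMT2D-WT and KMT2D-KO cells (4 without KMT2D-KO -Glc replicate 2), and 0 to 3 for the interaction. Without KMT2D-KO -Glc replicate 1, 26 partner genes in place of 12 were called, against 74.4% in place of 50.8% of all genes tested, a setting chosen after seeing the data. In genes with over 57.0% GC, libraries of experiment 1 lay 0.19 to 0.34 (log2) and those of experiment 2 -0.24 to -0.12 from the gene means.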
